A study of Homo sapiens with 10 samples.

Results

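The 36 genes described here encode the proximal signalling apparatus of the B cell receptor: its signalling chains, coreceptors, kinases, adaptors, lipid enzymes and inhibitors. They were listed by symbol, and all 36 were found among the 21174 genes of the count table, 1 identifier each. The RNA-seq libraries, 10 in all, come from clones of U2932, an established cell line grown from a human diffuse large B cell lymphoma. By their labels 5 clones are CREBBP+/- (column names Het_6 to Het_10) and 5 are CREBBP+/+ (WT_1 to WT_5), all kept in the same serum-containing medium without a stated treatment. CREBBP encodes a histone acetyltransferase and transcriptional coactivator. The sources used here do not say how the allele was altered, how the clones were derived or whether each had its own culture and RNA preparation. The p-values below therefore reflect library-to-library spread, which may be technical.

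When antigen binds membrane immunoglobulin, SRC family kinases phosphorylate the tails of CD79A and CD79B, and SYK binds there and phosphorylates the adaptor BLNK. BLNK brings BTK and PLCG2 together, PLCG2 raises calcium and diacylglycerol, and these drive NFAT, RAS and, through PRKCB, BCL10 and MALT1, the NF-kappaB pathway. A phosphoinositide 3-kinase branch is recruited through adaptors such as PIK3AP1. Inhibitory receptors such as CD22, CD72 and FCGR2B bring in the phosphatases PTPN6 and INPP5D, which end the signal. Diffuse large B cell lymphomas of the activated type, to which U2932 is assigned, depend on this pathway, and U2932 itself is known to hold genetically distinct subpopulations.

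Library totals ranged from 10615977 to 23020694 counts for CREBBP+/- clones and from 16542932 to 21817971 counts for CREBBP+/+ clones. Levels are given in CPM, the counts of a library scaled to a total of 1000000. CREBBP mRNA averaged 69.6 ± 10.2 CPM in CREBBP+/- clones, against 115 ± 13.5 CPM in CREBBP+/+ clones (SD, n = 5 each), without overlap, the direction the labels imply (log2 fold change -0.73, SE 0.12, edgeR adjusted p = 0.395, DESeq2 adjusted p = 0.000107). The B cell markers MS4A1, PAX5, CD79A, CD79B, EBF1 and CD22 were expressed in every library, with MS4A1 at 729.5 to 1568 CPM in CREBBP+/- clones, against 700.1 to 1461 CPM in CREBBP+/+ clones. Of 31 markers of other cells (epithelial, stromal, erythroid, myeloid, NK and T), 5 had enough counts to be tested (ZAP70, LCK, LAT, CD14 and EPCAM), and CD3D, CD2, NKG7, NCR1, FCGR3A, HBB, COL1A2 and KRT19 had 0 counts in every library. The T cell list, nearly all LCK, summed to 27.1 to 48.6 CPM in CREBBP+/- clones, against 37.8 to 85.7 CPM in CREBBP+/+ clones, and EPCAM had 13.7 to 26.7 CPM in CREBBP+/- clones, against 1.42 to 24.8 CPM in CREBBP+/+ clones, lowest in WT_1 and WT_2. Mitochondrial transcripts took 8.89 to 10.2% of counts in CREBBP+/- and 7.85 to 8.51% in CREBBP+/+ libraries, and the part of this shift in the differences below was not tested.

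The libraries form 3 clusters in overall expression that cross the genotypes. Cluster A holds Het_8, WT_1 and WT_2, cluster B holds Het_6, Het_7, WT_3, WT_4 and WT_5, and cluster C holds Het_9 and Het_10. Average-linkage clustering of 11815 genes, cut into 3 groups, returned the same clusters with the 36 genes, CREBBP, the MHC class II genes and the other pathway lists left out. The number of groups was set in advance, and these are most of the genes tested in the same libraries. The match therefore shows only that the clusters do not hinge on the genes left out. Because cluster C has no CREBBP+/+ library, cluster and genotype cannot be told apart there. Because the clusters come from expression in these libraries, differences between them are described without a test. In bulk libraries a different mix of cells and a different amount of RNA per cell cannot be told apart.

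The level of the 36 genes spanned a wide range. Per kilobase of annotated exon and averaged over the 10 libraries, CD79A stood at 359 CPM, CD79B at 143 CPM, CSK at 103 CPM and GRB2 at 86.4 CPM. The lowest levels per kilobase were 1.38 CPM for FCGR2B and 1.64 CPM for CD72. All 36 genes passed the filter on low counts. FCGR2B has near-identical paralogs whose reads could be split, and 13.7% of the exon length of RASGRP3 overlaps FAM98A, so these counts are uncertain.

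No gene of the pathway differed between the genotypes at the threshold. With edgeR's quasi-likelihood test and Benjamini-Hochberg adjustment, 0 of 36 genes passed an adjusted p of 0.05, where 0 of 11961 genes tested did (0%). DESeq2 called 0 of the 36 and 34 of 16156 genes with a p-value (0.21%). At an unadjusted p under 0.05, 2 of the 36 were lower in CREBBP+/- libraries, INPP5D and BLNK, and 0 were higher, where 4.98% of all genes tested passed, 2.6% lower and 2.38% higher. Of the 36 genes, 0 separated the genotypes without overlap in either direction, against 1.02% of all genes, 0.594% of them lower in CREBBP+/- libraries.

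Point estimates leaned below 0, by a larger median in the 7 inhibitors than in the 27 activators among the 36. Of the 36 genes, 26 (72.2%) had a log2 fold change (CREBBP+/- over CREBBP+/+) below 0, against 52.4% of all genes tested, and the medians were -0.11 for the 36 and -0.01 for all genes. The 27 activating genes had a median of -0.10, with 19 below 0. The 7 inhibitory genes had a median of -0.49, with 6 below 0. In a separate list of other inhibitors, described below and not purely inhibitory, the 19 tested genes had a median of -0.14. LYN and PTPRC, which act in both directions, stood at -0.11 and 0.24. The activator median was -0.02 without WT_4 or WT_5 and -0.18 without WT_1. The inhibitor median was -0.32 without WT_5 and -0.30 without Het_9 and Het_10. The libraries left out differ between the classes, so these values do not trace the gap between them. With the library clusters as covariate, the median was -0.14 for the activators (the value of PLCG1) and -0.31 for the inhibitors (that of CSK), a smaller gap.

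**Figure D1:**
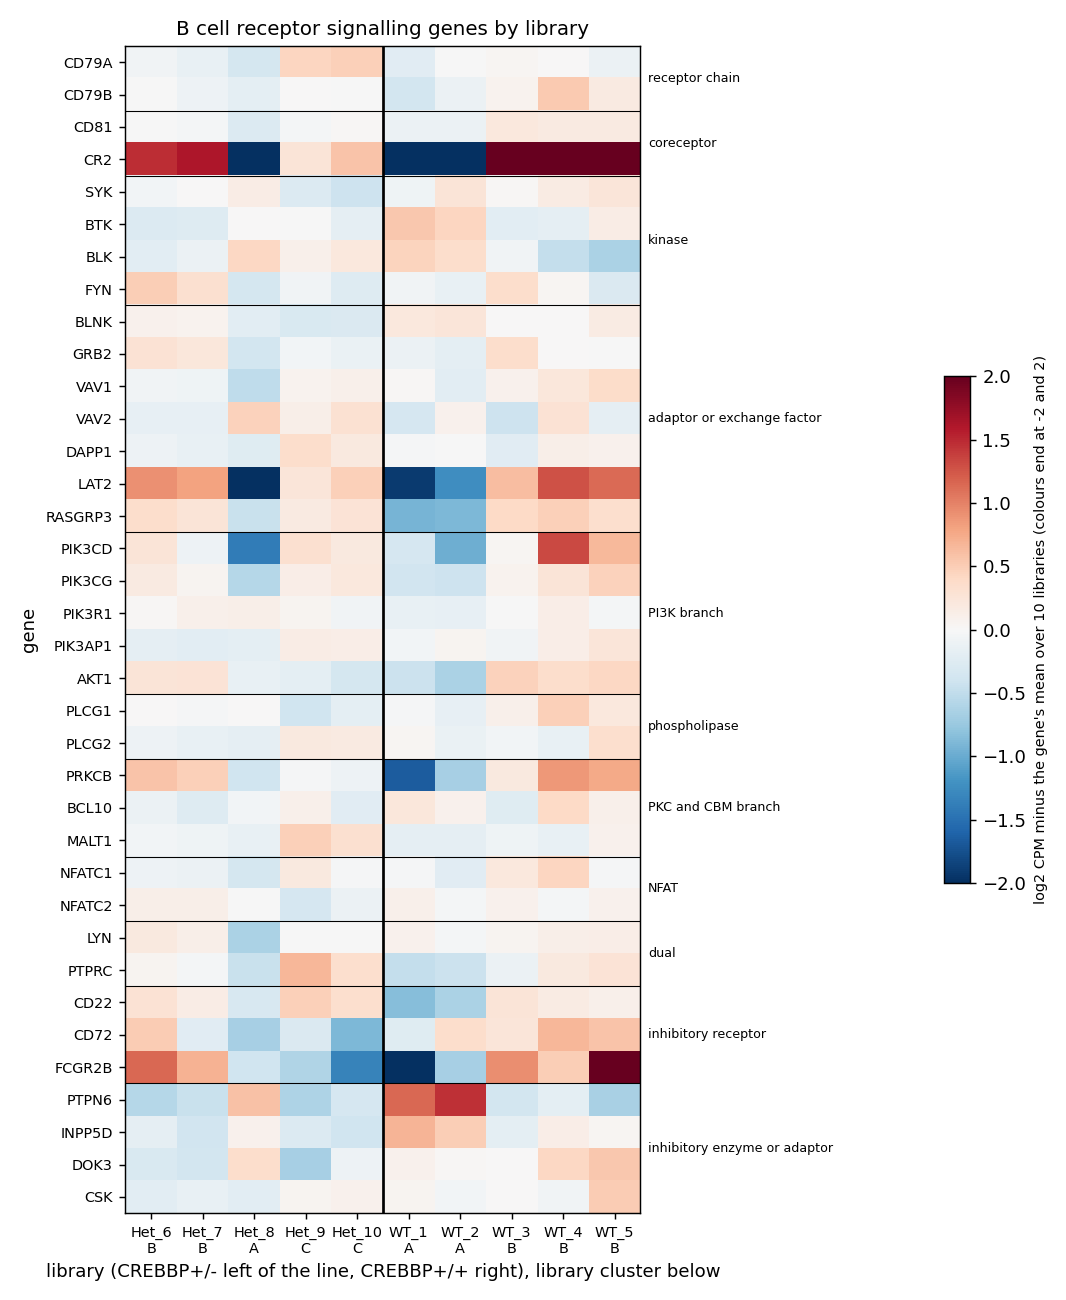
Log2 CPM of the 36 genes in each library, minus the mean of the gene over the 10 libraries, with CREBBP+/- libraries left of the line and the cluster letter under each name. The columns of cluster A (Het_8, WT_1 and WT_2) are below the mean for CR2, LAT2, PIK3CD and PRKCB and above it for PTPN6. Colours end at -2 and 2, which CR2 exceeds in several libraries.

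Among the inhibitors, INPP5D had the smallest p of the 36 genes. INPP5D (ENSG00000168918, chromosome 2, 233059967 to 233207903, plus strand, GRCh38) encodes SHIP1, the lipid phosphatase that removes the product of phosphoinositide 3-kinase. It had 115, 100.5, 138, 108 and 99.8 CPM in Het_6 to Het_10, against 210.3, 185, 114, 144 and 134 CPM in WT_1 to WT_5. The CREBBP+/- values lay below WT_1, WT_2 and WT_4, while WT_3 and WT_5 lay among them, so the groups overlapped. The log2 fold change was -0.49 (SE 0.17, edgeR adjusted p = 0.965), and -0.58 to -0.36 when 1 library was left out. INPP5D was lower in Het_8 than in WT_1 and WT_2 within cluster A, and lower on average in Het_6 and Het_7 than in WT_3 to WT_5 within cluster B.

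The other inhibitory enzymes and adaptors did not pass either. PTPN6, the tyrosine phosphatase SHP-1 (ENSG00000111679, chromosome 12, 6946468 to 6961316), averaged 18.9 ± 7.75 CPM in CREBBP+/- clones, against 31.6 ± 21.0 CPM in CREBBP+/+ clones (SD, n = 5 each), which is -0.73 on the log2 scale (SE 0.43, edgeR adjusted p = 0.988). WT_1 and WT_2 were the highest of the 10 libraries, and the estimate was -0.37 without WT_2. DOK3, an adaptor that recruits INPP5D and GRB2, averaged 169.96 ± 46.7 CPM in CREBBP+/- clones, against 225 ± 39.4 CPM in CREBBP+/+ clones (-0.40, SE 0.19, edgeR adjusted p = 0.977). CSK, the kinase that places the inhibitory phosphate on SRC family kinases, averaged 437 ± 45.3 CPM in CREBBP+/- clones, against 497 ± 91.1 CPM in CREBBP+/+ clones (-0.19, SE 0.13, edgeR adjusted p = 0.988). The highest CSK value, 658 CPM in WT_5, stood far from the next CREBBP+/+ library at 479 CPM, and the estimate was -0.07 without it.

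The inhibitory receptors had estimates on both sides of 0, and none passed. CD22, a sialic acid-binding receptor that carries PTPN6 to the receptor, averaged 318 ± 61.4 CPM in CREBBP+/- clones, against 252 ± 81.1 CPM in CREBBP+/+ clones (log2 fold change 0.33, SE 0.23, edgeR adjusted p = 0.988, n = 5 each). CD72, a C-type lectin with an inhibitory motif, had 6.402, 3.86, 2.83, 3.67 and 2.42 CPM in Het_6 to Het_10, against 3.82, 5.78, 5.32, 7.14 and 6.67 CPM in WT_1 to WT_5. Its groups overlapped at these low levels, with 40 to 150 counts per library (-0.58, SE 0.28, edgeR adjusted p = 0.977). FCGR2B, the inhibitory Fc receptor, had a log2 fold change of -0.56 (SE 0.71), which turned to 0.13 without WT_5, the library with its highest value of 27.6 CPM.

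Among the activating genes, the receptor chains differed by less than the spread between libraries. CD79A had 452, 427, 371, 637 and 661 CPM in Het_6 to Het_10, against 406, 475, 488, 476 and 438 CPM in WT_1 to WT_5. Only Het_9 and Het_10 stood above the CREBBP+/+ range, and the log2 fold change of 0.16 (SE 0.16) became -0.13 without these libraries. CD79B, its partner chain, averaged 290 ± 16.9 CPM in CREBBP+/- clones, against 320.3 ± 74.4 CPM in CREBBP+/+ clones (-0.15, SE 0.15, edgeR adjusted p = 0.988, n = 5 each). CD81, a tetraspanin of the coreceptor complex, had 269, 263, 225, 263 and 276 CPM in Het_6 to Het_10, against 251, 249, 315, 307 and 305 CPM in WT_1 to WT_5. Its 3 highest libraries were WT_3 to WT_5, and its log2 fold change was -0.14 (SE 0.10).

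BLNK, the scaffold between SYK, BTK and PLCG2 (ENSG00000095585, chromosome 10, 96189171 to 96271587, minus strand), was the activating gene with the smallest p. It had 113, 112, 92.7, 86.8 and 87.5 CPM in Het_6 to Het_10, against 123, 127, 108, 107 and 119 CPM in WT_1 to WT_5. Het_8, Het_9 and Het_10 lay below every CREBBP+/+ library, and Het_6 and Het_7 lay within their range. The log2 fold change was -0.25 (SE 0.10, edgeR adjusted p = 0.977). BTK, the TEC family kinase that activates PLCG2, stood at -0.31 (SE 0.15), and SYK, the kinase that binds the phosphorylated chains, at -0.23 (SE 0.12). The SRC family kinases BLK and FYN stood at 0.11 (SE 0.22) and 0.07 (SE 0.19), and BLK was at -0.01 without WT_5.

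The lipid and NFAT branches held small differences with overlap between genotypes. PLCG2, the main phospholipase C of B cells, averaged 453 ± 58.0 CPM in CREBBP+/- clones, against 459 ± 68.5 CPM in CREBBP+/+ clones, and its relative PLCG1 had a log2 fold change of -0.25 (SE 0.13). Among the phosphoinositide 3-kinase genes, PIK3R1, a regulatory subunit, was the steadiest of all 36 genes, with a highest value 1.23 times its lowest over the 10 libraries. PIK3CD, the catalytic subunit p110-delta, was at -0.39 (SE 0.43) and rested on WT_4, the library with 142 CPM, without which it was 0.01. The log2 fold changes of MALT1, the paracaspase, BCL10, its partner, and PRKCB, the kinase upstream of both, were 0.22 (SE 0.13), -0.23 (SE 0.14) and -0.01 (SE 0.42). The transcription factors NFATC1 and NFATC2 stood at -0.16 (SE 0.14) and -0.07 (SE 0.10).

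Of the remaining activating genes, the complement receptor CR2 had a log2 fold change of -0.66 (SE 1.05). The exchange factors VAV1 and VAV2 stood at -0.20 (SE 0.14) and 0.22 (SE 0.17), and the RAS exchange factor RASGRP3 at 0.14 (SE 0.30). The adaptor PIK3AP1 and the kinase AKT1 stood at -0.11 (SE 0.10) and -0.11 (SE 0.23). The log2 fold changes of GRB2 (-0.01), PIK3CG (-0.01), DAPP1 (0.03) and LAT2 (-0.10) were near 0. None passed, and the wide errors of CR2 and LAT2 go with their large differences between the library clusters.

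**Figure D2:**
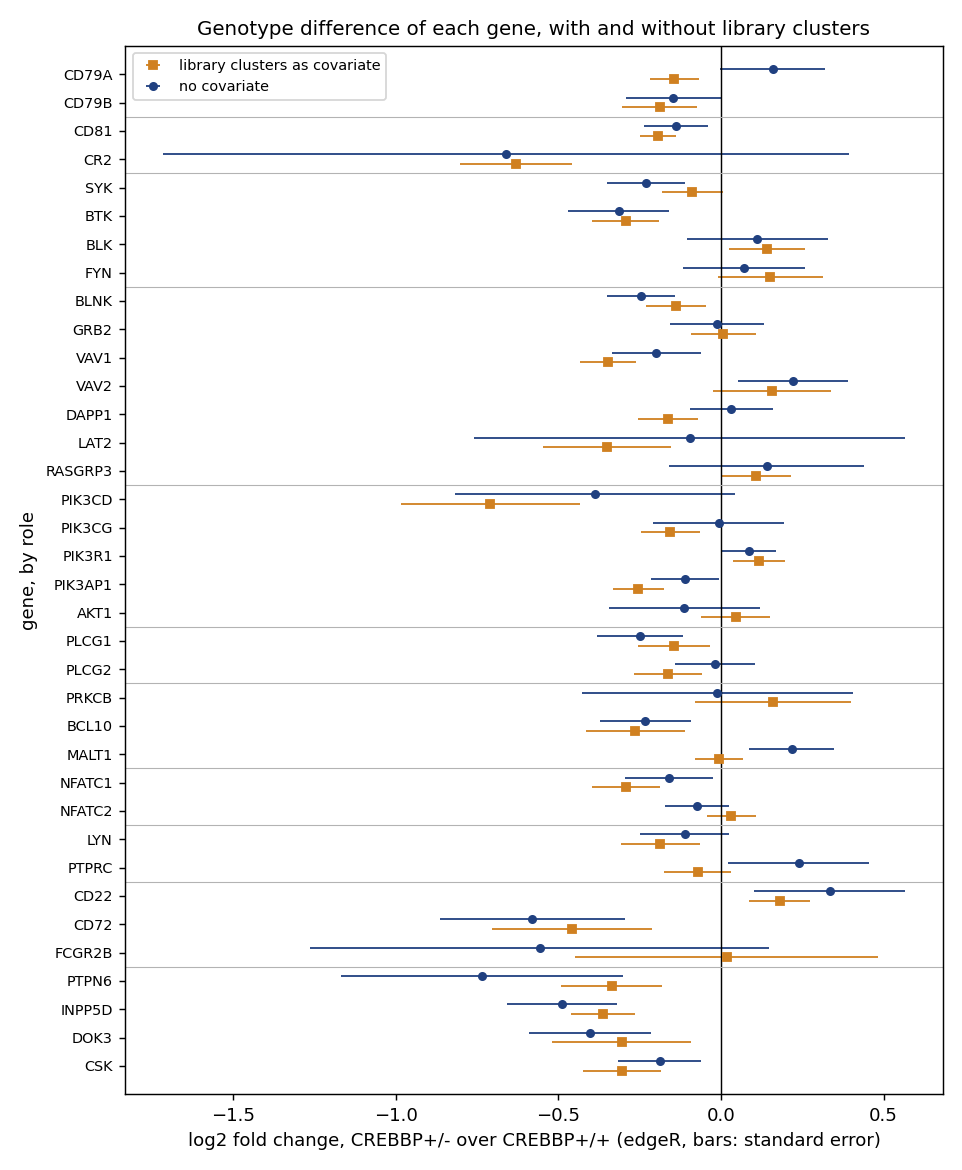
Log2 fold change of each gene (CREBBP+/- over CREBBP+/+, with its standard error), from fits without a covariate (circles) and with the library clusters as covariate (squares). CR2 keeps nearly the same estimate (-0.66 and -0.63) while its standard error shrinks from 1.05 to 0.17. CD79A moves from 0.16 to -0.14. The clusters come from the same libraries, so the standard errors of the squares may be too small.

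The library clusters separated several of these genes far more than the genotypes did. For the median gene of the 36, clusters held 64.8% and genotypes 11.2% of the variance of log2 CPM, against 63.5% and 6.03% for the median of all genes tested. The clusters are more groups than the genotypes and were drawn from expression in these libraries, so their larger share is partly built in. Comparing cluster A with cluster B, 6 of the 36 genes were at least 2-fold lower without overlap (16.7%, where 6.63% of all genes tested were) and 1 was at least 2-fold higher (2.78%, against 4.39%). The 6 lower genes were CR2, LAT2, FCGR2B, PRKCB, PIK3CD and RASGRP3, and the higher gene was PTPN6. Between cluster C and cluster B, 2 of the 36 genes were at least 2-fold lower without overlap, CR2 and FCGR2B (5.56%, against 3.17% of all genes), and 0 were higher (against 3.11%). Between cluster C and cluster A, CR2, LAT2 and PIK3CD were higher by this rule (8.33%, against 7.52%) and PTPN6 was lower (2.78%, against 4.48%). Cluster A lay below all other libraries in 11 of the 36 genes (30.6%, against 17% of all genes) and above them in 2 (5.56%, against 16.1%). The lower genes were CD79B, CD81, CR2, LAT2, RASGRP3, PIK3CD, PIK3CG, PRKCB, MALT1, PTPRC and CD22, and the higher ones BLK and PTPN6.

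CR2, the complement receptor CD21 that lowers the threshold for antigen together with CD81 (ENSG00000117322, chromosome 1, 207453024 to 207489895, plus strand), differed most. It had 9.65 and 12.1 CPM in Het_9 and Het_10 of cluster C, 0.545, 0.555 and 1.31 CPM in Het_8, WT_1 and WT_2 of cluster A, and 22.6, 24.9, 33.0, 39.4 and 36.4 CPM in Het_6, Het_7, WT_3, WT_4 and WT_5 of cluster B. The 3 clusters did not overlap, and cluster A stood at 9 to 24 counts per library, so that its mean was 38.9-fold below that of cluster B and its low values carry counting error. IGHD, the delta heavy chain of surface immunoglobulin, ran in the same order, with 6.43 and 9.83 CPM in cluster C, 0.546 to 1.11 CPM in cluster A and 78.3 to 132 CPM in cluster B. IGHM, the mu chain, was at 5504 and 6885 CPM in cluster C, 4327 to 4862 CPM in cluster A and 8859 to 11754 CPM in cluster B.

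LAT2, a transmembrane adaptor also called NTAL (ENSG00000086730, chromosome 7, 74199652 to 74229834), was the next largest. It had 43.6 and 51.3 CPM in Het_9 and Het_10, 7.30, 9.74 and 15.6 CPM in Het_8, WT_1 and WT_2, and 69.1, 64.0, 56.2, 89.1 and 80.9 CPM in Het_6, Het_7, WT_3, WT_4 and WT_5. The mean of cluster A was 6.62-fold below that of cluster B. PRKCB, the protein kinase C that acts upstream of BCL10 and MALT1, averaged 24.9, 14.7 and 38.9 CPM in clusters C, A and B. PIK3CD averaged 67.8, 31.7 and 82.1 CPM in the same order, and RASGRP3 262, 134 and 288 CPM. In each of the 3 genes all cluster A libraries were the lowest of the 10.

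PTPN6 ran the other way. It had 14.1 and 17.2 CPM in Het_9 and Het_10, 32.6, 48.1 and 60.0 CPM in Het_8, WT_1 and WT_2, and 14.7, 16.0, 16.8, 19.0 and 14.0 CPM in Het_6, Het_7, WT_3, WT_4 and WT_5. Cluster A stood 2.91-fold above cluster B, and Het_8 was the lowest of the cluster A libraries. INPP5D was also higher on average in cluster A (178 CPM) than in cluster B (122 CPM), while CD22 averaged 183 CPM in cluster A and 314 CPM in cluster B. The inhibitory genes thus lay on both sides. Of the activating genes, BLK alone lay above every other library in cluster A, with 175, 178 and 167 CPM in Het_8, WT_1 and WT_2. PTPRC, the phosphatase CD45, had 227, 222 and 228 CPM there, below every other library.

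**Figure D3:**
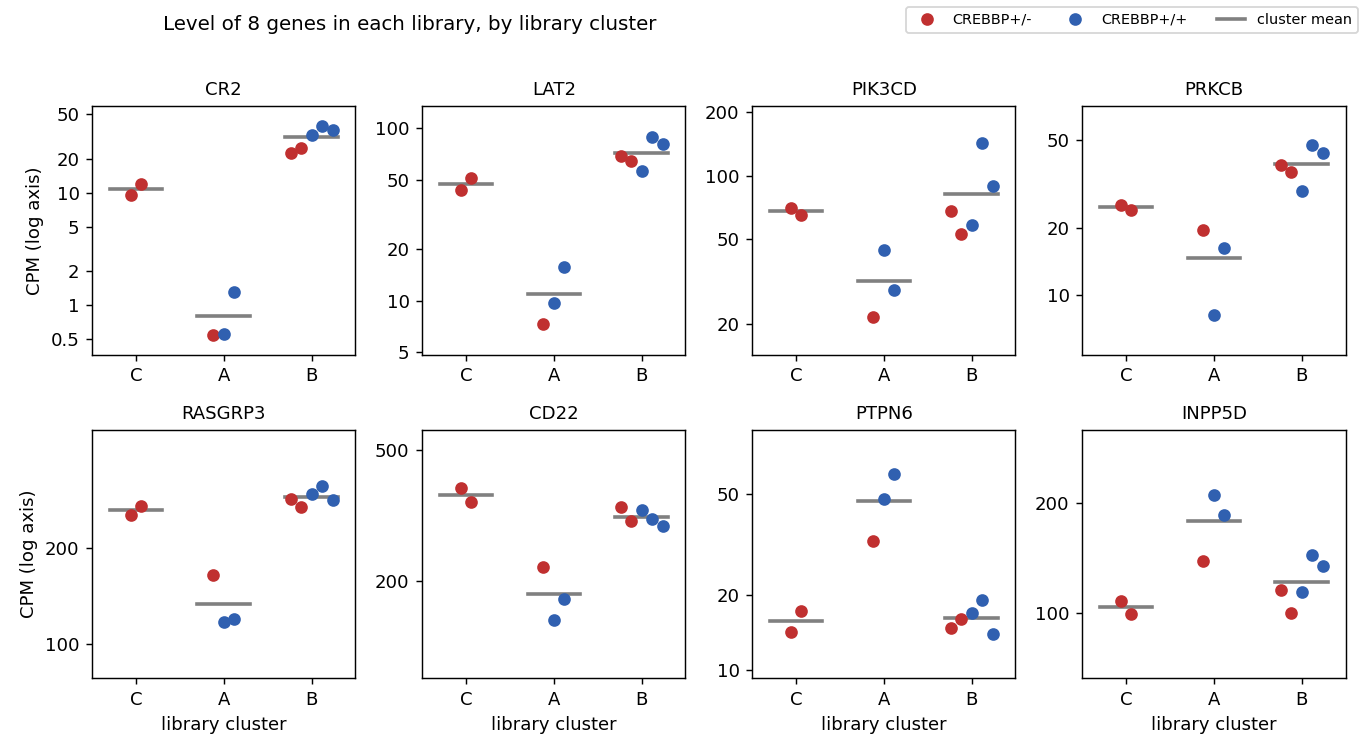
CPM of 8 genes in each library (log axis), by library cluster, with CREBBP+/- and CREBBP+/+ libraries in separate colours and the cluster mean as a bar. CR2 in cluster A lies at 0.545 to 1.31 CPM, below clusters C and B, and PTPN6 in cluster A lies at 32.6 to 60.0 CPM, above both.

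The upstream sequences of 3 of these genes are shown because they differ most between clusters A and B among the genes with a sequence to print and a matching motif: CR2 and PRKCB, lower in cluster A, and PTPN6, higher there. Each is the 250 bases before the RefSeq gene start on the plus strand of GRCh38.p14, 5′ to 3′, and for CR2 and PTPN6 the GENCODE start lies upstream of the RefSeq start: chr1:207454078-207454327 for CR2, chr16:23835733-23835982 for PRKCB and chr12:6946327-6946576 for PTPN6. Capitals mark matches, on either strand, to 7 motifs of factors active in B cells: EBF1 (TCCC and GGGA with 2 bases of any kind between them), the octamer (ATGCAAAT), PU.1 (GAGGAA), E2A (CAGGTG), MYC (CACGTG), CREB (TGACGTCA) and NF-kappaB (GGG and TTTCC with 2 bases of any kind between them).
CR2: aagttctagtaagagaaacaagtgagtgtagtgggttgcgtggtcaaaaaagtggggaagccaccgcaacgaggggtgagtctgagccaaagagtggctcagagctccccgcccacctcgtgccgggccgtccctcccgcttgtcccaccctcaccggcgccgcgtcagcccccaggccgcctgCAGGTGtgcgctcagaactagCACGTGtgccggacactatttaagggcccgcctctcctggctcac
PRKCB: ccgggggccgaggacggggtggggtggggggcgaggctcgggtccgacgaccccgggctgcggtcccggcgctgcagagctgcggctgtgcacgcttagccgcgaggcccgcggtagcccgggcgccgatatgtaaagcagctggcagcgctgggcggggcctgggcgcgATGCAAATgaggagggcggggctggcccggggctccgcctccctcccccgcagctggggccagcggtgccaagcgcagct
PTPN6: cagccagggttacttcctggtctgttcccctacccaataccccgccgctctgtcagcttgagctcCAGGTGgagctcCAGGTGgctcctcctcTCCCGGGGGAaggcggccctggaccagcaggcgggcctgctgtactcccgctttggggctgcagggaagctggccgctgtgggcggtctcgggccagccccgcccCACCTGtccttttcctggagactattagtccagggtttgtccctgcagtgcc
CR2 holds 1 E2A and 1 MYC match, PRKCB 1 octamer, and PTPN6 3 E2A matches and 1 EBF1 match, with no overlap between matches. Of 27305 such upstream windows, 17.5% hold the E2A motif, 6.49% the MYC motif, 1.66% the octamer and 1.08% the EBF1 motif. Of the 31 pathway genes with a window, 12 hold E2A, 12 PU.1 (23.4% of all windows), 3 MYC, 1 EBF1, 1 the octamer, 1 NF-kappaB (1.73%) and 0 CREB (1.77%). A match describes these letters only. EBF1 mRNA had 63.9 and 60.0 CPM in cluster C and 49.4 to 64.1 CPM in cluster B. In cluster A it had 31.3, 20.3 and 21.6 CPM in Het_8, WT_1 and WT_2. Levels of the factors of the other motifs are not given here. Whether EBF1 bears on any of these genes was not tested.

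In cluster C, which holds only CREBBP+/- libraries, the pathway genes stood apart about as often as all genes did. Het_9 and Het_10 lay above all 8 other libraries in 5 of the 36 genes (13.9%, against 9.78% of all genes tested) and below them in 4 (11.1%, against 8.7%). The higher genes were CD79A, CD22, PTPRC, MALT1 and DAPP1, an adaptor that binds phosphoinositides. MALT1 had 241 and 217 CPM in these libraries and stayed between 153 and 185 CPM in the remaining 8. The lower genes were SYK, BLNK, PLCG1 and NFATC2. SYK had 209 and 189 CPM there, against 239.7 to 301 CPM elsewhere. With the clusters as covariate, in a fit that draws the genotype effect from clusters A and B, the log2 fold change of MALT1 was -0.01 and that of SYK -0.09.

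Within the clusters that hold both genotypes, the activating genes CR2, CD81, VAV1, PIK3AP1, BTK, PIK3CD and NFATC1 and the inhibitors INPP5D and CSK were lower in CREBBP+/- libraries at an unadjusted p under 0.05, and none at the adjusted threshold. In the edgeR fit with the clusters as covariate, 9 of the 36 genes were lower at that p (25%, where 7.67% of all genes tested were) and 0 were higher (against 5.01%), while 0 of the 36 and 0 of 11961 genes passed an adjusted p of 0.05. In that fit 25 of the 36 genes (69.4%) had an estimate below 0, against 50.6% of all genes. The clusters were drawn from the expression of the same libraries, so the fit removes spread chosen from these data. Its standard errors and p-values may therefore be too small, and they are given as a description. The estimates were -0.71 for PIK3CD (SE 0.27), -0.63 for CR2 (SE 0.17), -0.36 for INPP5D (SE 0.10), -0.35 for VAV1 (SE 0.09), -0.31 for CSK (SE 0.12), -0.29 for BTK (SE 0.10), -0.29 for NFATC1 (SE 0.10), -0.25 for PIK3AP1 (SE 0.08) and -0.19 for CD81 (SE 0.06), with edgeR adjusted p from 0.217 (VAV1) to 0.359 (PIK3CD). Leaving out each of the 8 libraries of clusters A and B in turn, 7 to 13 of the 36 genes were lower at the unadjusted p, where 4.11 to 10.1% of all genes were, and 0 to 2 were higher, where 3.01 to 7.89% were. The most, 13 lower and 2 higher, passed without WT_3, a fit in which 9.59% of all genes were lower, 7.89% were higher and 114 genes, 0 of them among the 36, passed an adjusted p of 0.05. CD81, CR2, INPP5D, PIK3AP1 and VAV1 were among the lower genes in all 8 fits. These genes already passed with all libraries, and the fits share most libraries. The share of all genes that were lower in all 8 fits was not computed. PIK3CD was not among the lower genes without Het_7, Het_8, WT_1 or WT_4, and its estimate was -0.47 (SE 0.21) without WT_4, its highest library. CSK was not among them without Het_6, Het_7 or WT_1, NFATC1 without Het_6 or Het_7, and BTK without Het_8. The estimate of CSK was -0.18 without WT_5, and that of BTK was -0.19 without Het_8.

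Counted by library, Het_8 lay below both WT_1 and WT_2 in 21 of the 36 genes (58.3%, against 38.3% of all genes) and above both in 10 (27.8%, against 38.3%). Het_6 and Het_7 lay below all of WT_3, WT_4 and WT_5 in 12 genes (33.3%, against 18.4%) and above them in 1, NFATC2 (2.78%, against 17.8%). Both held, in the lower direction, for CD81, CR2, BTK, VAV1, PIK3AP1, NFATC1 and CSK, 7 of the 36 (19.4%, against 7.06% of all genes), and 0 genes were higher in both (against 6.12%). For CR2 in cluster A this rests on 10 counts in Het_8 against 9 and 24 counts in WT_1 and WT_2, and the levels of Het_8 and WT_1, 0.545 and 0.555 CPM, differ by less than counting error. In VAV1, a haematopoietic exchange factor for RAC GTPases, Het_8 had 48.6 CPM against 69.9 and 59.5 CPM in WT_1 and WT_2, and Het_6 and Het_7 had 65.4 and 65.1 CPM against 72.8, 81.0 and 89.2 CPM in WT_3 to WT_5. In BTK, Het_8 had 109.8 CPM against 159.9 and 147 CPM, and Het_6 and Het_7 had 91.2 and 91.6 CPM against 94.6, 96.6 and 122 CPM.

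Whether the genotype difference itself differed between clusters A and B was tested next, and no pathway gene passed. An interaction of genotype and cluster, fitted with edgeR over the 8 libraries of both clusters, passed an adjusted p of 0.05 in 0 of the 36 genes and in 10 of 12179 genes (0.0821%). At an unadjusted p under 0.05 it passed in 7 (19.4%, against 13% of all genes), LYN, RASGRP3, DOK3, AKT1, BLNK, PTPN6 and CD22. In cluster A this contrast rests on the single library Het_8. The p-values of the interaction may also be too small, because the clusters were drawn from the same libraries. LYN, the SRC family kinase that starts the signal and also phosphorylates the inhibitory receptors, had 108 CPM in Het_8 against 176 and 163 CPM in WT_1 and WT_2, and 191 and 180.2 CPM in Het_6 and Het_7 against 173, 180.4 and 183 CPM in WT_3 to WT_5. Its interaction was 0.71 on the log2 scale (cluster B minus cluster A, SE 0.13, edgeR adjusted p = 0.167). DOK3 had 245 CPM in Het_8 against 204 and 195 CPM in WT_1 and WT_2, and 156 and 148 CPM in Het_6 and Het_7 against 192, 256 and 278 CPM in WT_3 to WT_5 (-0.96, SE 0.24, edgeR adjusted p = 0.236). Without WT_3 both passed (edgeR adjusted p = 0.0429 for LYN and 0.0126 for DOK3), in a fit that called 281 of 12092 genes (2.32%).

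**Figure D4:**
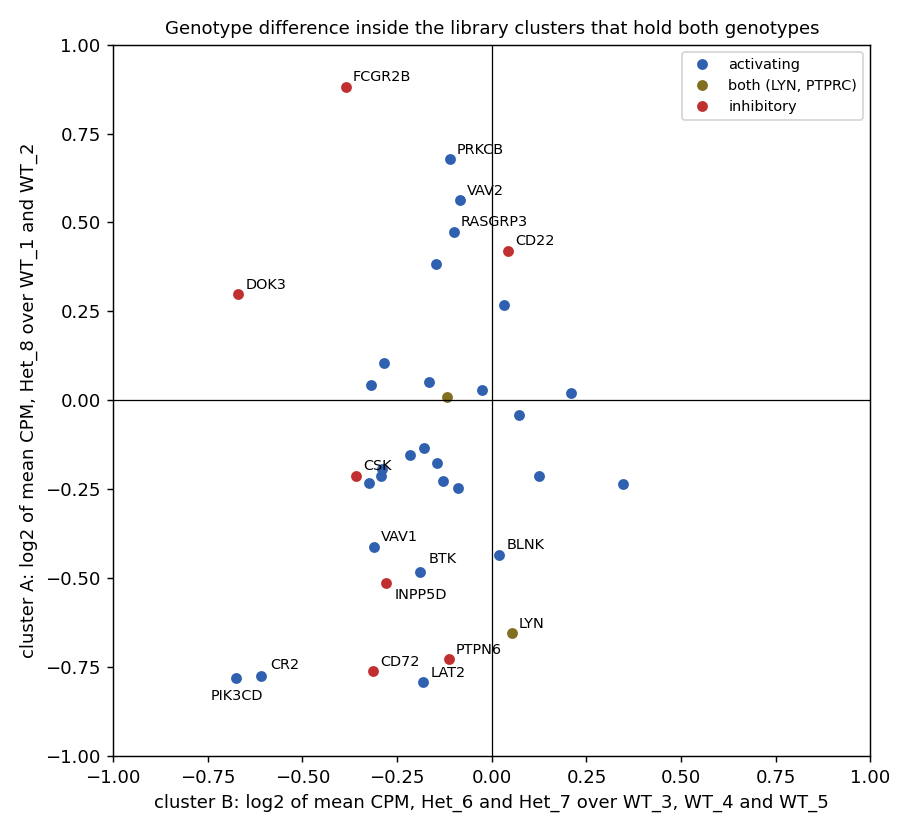
Genotype difference of each gene inside cluster B (horizontal, log2 of the mean CPM of Het_6 and Het_7 over that of WT_3, WT_4 and WT_5) and inside cluster A (vertical, Het_8 over WT_1 and WT_2), coloured by role. PIK3CD (-0.68 and -0.78) and CR2 (-0.61 and -0.77) lie below 0 on both axes, but the horizontal value of PIK3CD is -0.29 without WT_4 and the vertical value of CR2 is -0.03 without WT_2. DOK3 lies at -0.67 and 0.30.

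Beyond the 36 genes, 7 further lists of the pathway held 0 genes past the adjusted threshold of edgeR in either direction. For the counts below 0 in these lists, the share over all genes tested was 52.4%. Of 12 tested genes of other adaptors and exchange factors, 8 were below 0 (median -0.17), and RAC2, a haematopoietic GTPase activated by VAV proteins, was the gene of these lists that DESeq2 called (123 ± 12.7 CPM in CREBBP+/- clones, against 185 ± 21.2 CPM in CREBBP+/+ clones). VAV3, another VAV family member, was at 0.84 (SE 0.35), with its highest values, 35.9 and 42.3 CPM, in Het_9 and Het_10. Of 10 tested genes in the other phosphoinositide 3-kinase list, 5 were below 0 (median 0.01).

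In the RAS and ERK list 10 of 14 genes were below 0 (median -0.08), with MAPK3, the kinase ERK1, at -0.39 (SE 0.14) and the adaptor SHC1 at -0.23 (SE 0.09). In the calcium list 9 of 12 were below 0 (median -0.07), with the endoplasmic calcium sensor STIM1 at -0.21 (SE 0.11). Of 19 tested genes among other inhibitors, 14 were below 0 (median -0.14), and the Fc receptor-like FCRL5 stood at -0.44 (SE 0.20). This list includes FCRL1 (-0.59) and PTPN11 (-0.09), whose roles are not only inhibitory. Of 18 tested genes that receptor signalling induces, 10 were below 0 (median -0.07). NR4A1, an immediate early nuclear receptor, was at 0.80 (SE 0.24) with 175, 133 and 162 CPM in Het_8, Het_9 and Het_10 and 56.5 to 89.1 CPM in the other 7 libraries, while the phosphatase DUSP5 was at -0.59 (SE 0.20) and the chemokine CCL4 at -0.87 (SE 0.39). All 6 immunoglobulin constant chains had point estimates below 0 (median -0.38), and IGHM stood at -0.15 (SE 0.32). Of the exon length of IGLC1, 100% overlaps IGLL5, so its count is uncertain, and IGHD differed widely between the library clusters.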

How the data were processed

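The deposited table holds unnormalized counts, with Ensembl identifiers in rows and 1 column per library. Per the submitters' processing notes, the build GRCh38 and the tools STAR, featureCounts, FastQC and DESeq2 are named, with no version or role stated. Which annotation was counted, and whether by strand, is not given in the sources used here. Columns Het_6 to Het_10 carry no labelled number and entered only as CREBBP+/- clones. Deposited counts of 10000 or more are multiples of 10, a rounding that moves each by little.

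Coordinates and exon lengths came from GENCODE release 44 of GRCh38. In a table of Ensembl gene names, 20804 of 21174 identifiers (98.3%) had a symbol. CREBBP+/- was compared with CREBBP+/+ (5 libraries each) with edgeR 4.0.16 in R 4.3.3: TMM factors, filterByExpr (minimum count 10, minimum total 15; 11961 genes kept), robust quasi-likelihood F-test, Benjamini-Hochberg adjustment over all genes, two-sided. CPM use the TMM factors and the totals of the kept genes, and standard errors come from the F statistics. Log2 CPM for single libraries used a prior count of 2. The test was checked on simulated counts with the same dispersion for every gene and no library clusters. That check does not show the power or error rate of the test in these libraries. Alternatives were DESeq2 1.42.0, limma-voom 3.58.1, other scaling factors and filters, library clusters as covariate and libraries left out.

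All 36 genes are named, and of each other list up to 4 with the smallest p. Some genes that this rule would name are not reported here. The genes, lists, motifs and clusters were chosen with earlier results of these data known. Fits with the clusters and 1 library left out were added after the data were seen. Upstream sequences come from RefSeq (GRCh38.p14).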

Additional observations from a re-analysis of the deposited data

Results flagged for a closer look

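For each gene and genotype, the highest and lowest log2 CPM were checked for a gap to the nearest of the other 4 libraries that took up most of the spread. Such a gap occurred in 9 of 72 gene and genotype sets. A nominal rate is about 1 in 20, but it takes no account of the library clusters. The share over all genes tested was not computed, so the count is not a result about the pathway. In 8 of the 9 the library was Het_8, the CREBBP+/- library of cluster A. Across all genes tested, cluster A lay above all other libraries in 16.1% and below them in 17%.

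Het_8 was the lowest CREBBP+/- library for CD81 (7.81 log2 CPM, next 8.04), CR2 (-0.62, next 3.29), LAT2 (2.89, next 5.45), RASGRP3 (7.36, next 7.98), PIK3CD (4.43, next 5.73), PIK3CG (5.36, next 5.998) and LYN (6.75, next 7.38). It was the highest for PTPN6 (5.03, next 4.12). For CD81, CR2, LAT2, RASGRP3, PIK3CD, PIK3CG and PTPN6 the values of WT_1 and WT_2, its partners in cluster A, lay on the same side. For LYN they did not, since WT_1 and WT_2 had 176 and 163 CPM. WT_5 was the highest CREBBP+/+ library for CSK (9.36, next 8.90).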

How the results depend on the processing

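No paired analysis was possible because the CREBBP+/- columns carry numbers of no labelled clone, so the genotypes share none. The count of genes called was 34 with DESeq2, and 0 to 1 in edgeR without a covariate when 1 library was left out (0 to 114 with the clusters as covariate, 114 without WT_3). At an unadjusted p under 0.05 in edgeR, 2 of the 36 genes passed without a covariate, where 4.98% of all genes tested did. With the clusters as covariate 9 passed, where 12.7% of all genes did, and those p-values may be too small, as stated above. The count was 4 with limma-voom, 1 with upper-quartile factors, 1 without Het_9 and Het_10, and 1 to 5 when 1 library was left out. For these last fits the share of all genes is not given here, so their counts stand without a background. Other filters and DESeq2 size factors changed no direction among the 36. The causes of the changes below were not tested.

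Log2 fold changes of the other sign were, with limma-voom, LAT2 0.035, PIK3CG 0.0038 and PRKCB 0.20. With upper-quartile factors they were GRB2 0.012, PIK3CG 0.019, PLCG2 0.0074 and PRKCB 0.020. With the clusters as covariate they were CD79A -0.14, GRB2 0.0078, DAPP1 -0.16, AKT1 0.045, PRKCB 0.16, MALT1 -0.0061, NFATC2 0.032, PTPRC -0.072 and FCGR2B 0.018. Without Het_9 and Het_10 they were CD79A -0.13, GRB2 0.057, DAPP1 -0.16, AKT1 0.039, PRKCB 0.12, NFATC2 0.041 and PTPRC -0.044.

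Leaving out 1 library, the median of the 36 ranged from -0.19 to -0.060, BLK from -0.0089 to 0.25, DAPP1 from -0.060 to 0.091, FCGR2B from -0.95 to 0.13, FYN from -0.053 to 0.18, GRB2 from -0.085 to 0.083, LAT2 from -0.36 to 0.21, LYN from -0.17 to 0.0043, PIK3CD from -0.59 to 0.0054, PIK3CG from -0.10 to 0.12, PLCG2 from -0.070 to 0.076, PRKCB from -0.25 to 0.23 and RASGRP3 from -0.023 to 0.29. In fits with the clusters and 1 library left out, 8 to 15 of the 36 passed the unadjusted p in either direction, where 7.12 to 17.5% of all genes did, and 0 to 2 passed the adjusted p of the interaction, which could not be fitted without Het_8. CR2 in cluster A and CD72 rest on few counts, so their values there are the least precise.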
